A study of Homo sapiens with 4 samples.

Results

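Aminoacyl-tRNA synthetases were followed in SNU638, an established human gastric cancer (GC) cell line, after knockdown (KD) of ACTL6A. The synthetases were defined by name as 35 genes, 19 whose product works in the cytosol and 16 that serve the mitochondrion, and every probe set annotated with exactly 1 of these symbols was taken. This gave 67 of the 54675 probe sets on the array and 32 of the 35 genes, of which 17 were cytosolic (34 probe sets) and 15 mitochondrial (33 probe sets). The probe sets of MARS1, QARS1 and TARS2 did not carry a single symbol and are not analysed here. Each gene was represented by the probe set of highest mean signal. A gene was tested when that mean reached 5.63, the median of all probe sets other than controls, and all 32 synthetases were among the 12286 genes tested. Of the 67 probe sets, 56 lay above this threshold and 11 below it.

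Cells had been infected with lentivirus carrying the pLKO.1 vector and kept under puromycin, and they expressed either a scrambled sequence (scramble, 2 arrays) or a short hairpin RNA against ACTL6A (sh-ACTL6A, 2 arrays). ACTL6A encodes an actin-related subunit of the BAF, INO80 and TIP60 chromatin complexes. Its log2 signals of 11.92 and 11.82 in scramble and 10.16 and 10.32 in sh-ACTL6A matched the labels. ACTL6A fell by 1.63 on the log2 scale (95% interval -1.95 to -1.31, limma adjusted p = 0.0408), a fold of 0.323. The adjusted p was 0.0534 after quantile normalisation, 0.0797 without the signal filter, 0.556 without the intensity trend, 0.281 with every probe set tested, and 0.9996 and 0.567 when scramble replicate 1 or 2 was left out. No label ties the arrays of a group to separate cultures, so each p-value reflects a spread between arrays that may be technical only. Nor is it stated if the same hairpin was used for both sh-ACTL6A arrays, so a difference between hairpins cannot be told apart from a difference between arrays. RNA came from whole cultures, in which fewer cells of a kind and less RNA per cell cannot be told apart.

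All 5 epithelial markers were above the threshold, with mean log2 signals from 8.60 for CDH1 to 14.37 for KRT18. KRT18 differed by -0.34 between groups without passing (limma adjusted p = 0.595). The 3 leukocyte markers with a single-symbol probe set had mean signals of 2.77 to 5.37, below the threshold. Of 6 fibroblast and endothelial markers, 3 were above it, COL1A1 at 8.44, near CDH1, PECAM1 at 6.71 and DCN at 5.82. The difference between the 3′ and 5′ control probe sets of ACTB, commonly read as a sign of RNA length, was 1.63 and 0.78 in scramble and 1.21 and 0.78 in sh-ACTL6A. The arrays numbered 1 thus had the higher value in each group.

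An aminoacyl-tRNA synthetase joins an amino acid to the tRNAs that carry its anticodons, which makes it the step that enforces the genetic code. Cytosol and mitochondrion translate separately and mostly use separate nuclear-encoded enzymes, whose mitochondrial forms carry symbols ending in 2, while GARS1 and KARS1 supply both compartments from a single gene. Several cytosolic enzymes are held in a multisynthetase complex, and many cytosolic synthetase genes are known targets of ATF4, the transcription factor that is translated when amino acids run short and that binds CCAAT enhancer-binding protein-ATF response elements.

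Because the cytosolic list is rich in known ATF4 targets, the promoters were searched for the ATF4 element TGATGNAAN. The search covered both strands from 250 bases before to 50 bases after each start in the RefSeq promoter table (GRCh38.p14). A window was found for 27 of the 32 measured synthetases, and VARS2, LARS1, AARS2, VARS1 and YARS1 had none. The element was present in 7 of the 27 synthetases (25.9%) and in 4.45% of the 27305 genes with a window. By class, it was present in 6 of 14 cytosolic synthetases and in 1 of 13 mitochondrial ones. The 7 matches are shown here because the results are later given for genes with and without the element. The difference between the classes was not tested. Each is given as 29 bases on the gene's strand, with the element in capitals, and it reads from right to left as its reverse complement in all but NARS1 and YARS2.
GARS1 (chr7:30594834-30594862, plus strand): ttacgcggcgATTTCATCAtgctccgagc
IARS1 (chr9:92293693-92293721, minus strand): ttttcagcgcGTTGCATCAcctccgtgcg
CARS1 (chr11:3057408-3057436, minus strand): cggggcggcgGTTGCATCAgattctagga
TARS1 (chr5:33440956-33440984, plus strand): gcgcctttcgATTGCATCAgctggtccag
AARS1 (chr16:70289676-70289704, minus strand): ttttctcgcaGTTGCATCAgccaagttag
NARS1 (chr18:57621804-57621832, minus strand): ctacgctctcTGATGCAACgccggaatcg
YARS2 (chr12:32756076-32756104, minus strand): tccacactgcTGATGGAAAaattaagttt
The core TTGCATCA was shared by IARS1, CARS1, TARS1 and AARS1, and its reverse complement stood in NARS1. Relative to the start, the element covered bases -34 to -26 in GARS1, -14 to -6 in IARS1, -3 to 6 in CARS1, 2 to 10 in TARS1 and 15 to 23 in NARS1. In AARS1 it lay farther upstream, at -188 to -180, and in YARS2 at -197 to -189. These are matches of letters and not measured binding sites.

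None of the 32 synthetases passed the test between sh-ACTL6A and scramble. Across all genes the limma test called 1 gene, ACTL6A itself, which is 0.00814% of those tested. At an unadjusted p under 0.05 limma counted 0 of 32 synthetases, against 5.50% of all genes. The methods' t-test, run on the same values, counted 0 after adjustment and 3 of 32 at an unadjusted p under 0.05, namely FARSB, GARS1 and IARS1, against 5.47% of all genes. With every probe set tested on its own, 0 of the 67 passed and the lowest unadjusted p in limma was 0.0905. It belonged to a dim YARS1 probe set (mean signal 5.43, below the threshold) that was higher in sh-ACTL6A, by 0.95. Adjusted p-values of the 32 synthetases lay between 0.917 and 0.998.

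The cytosolic synthetases lay within a narrow band on the lower side of 0. Of 17 genes, 15 had a lower mean on the sh-ACTL6A arrays, where 48.1% of all genes tested did. Their median difference was -0.09 on the log2 scale against 0.01 for all genes, with a range from -0.20 for CARS1 to 0.04 for WARS1. Taken singly, sh-ACTL6A replicate 1 gave a median of -0.04 with 13 of 17 genes below the scramble mean, and replicate 2 gave -0.12 with 15 of 17. The 95% intervals of the 17 genes ran from -0.54 to 0.43 at their outer bounds, and all of them included 0. In 7 of 17 genes both sh-ACTL6A arrays lay below both scramble arrays, which held for 15.4% of all genes, and in 0 of 17 did both lie above, which held for 19.3%. With scramble replicate 2 left out, or with the probe sets averaged within each gene, 12 of 17 genes were below 0.

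The side of 0 on which genes lay also moved with signal strength. Of the 1606 genes tested with a mean log2 signal of 12 or more, 66.1% were below 0, their median was -0.04, and 21.4% had both sh-ACTL6A arrays below both scramble arrays. The 11 cytosolic synthetases in that range were all below 0 with a median of -0.10, and 6 of them did not overlap. The other 6 cytosolic synthetases had a median of -0.07, with 4 below 0. The part of signal strength in the cytosolic shift was not tested.

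**Figure D1:**
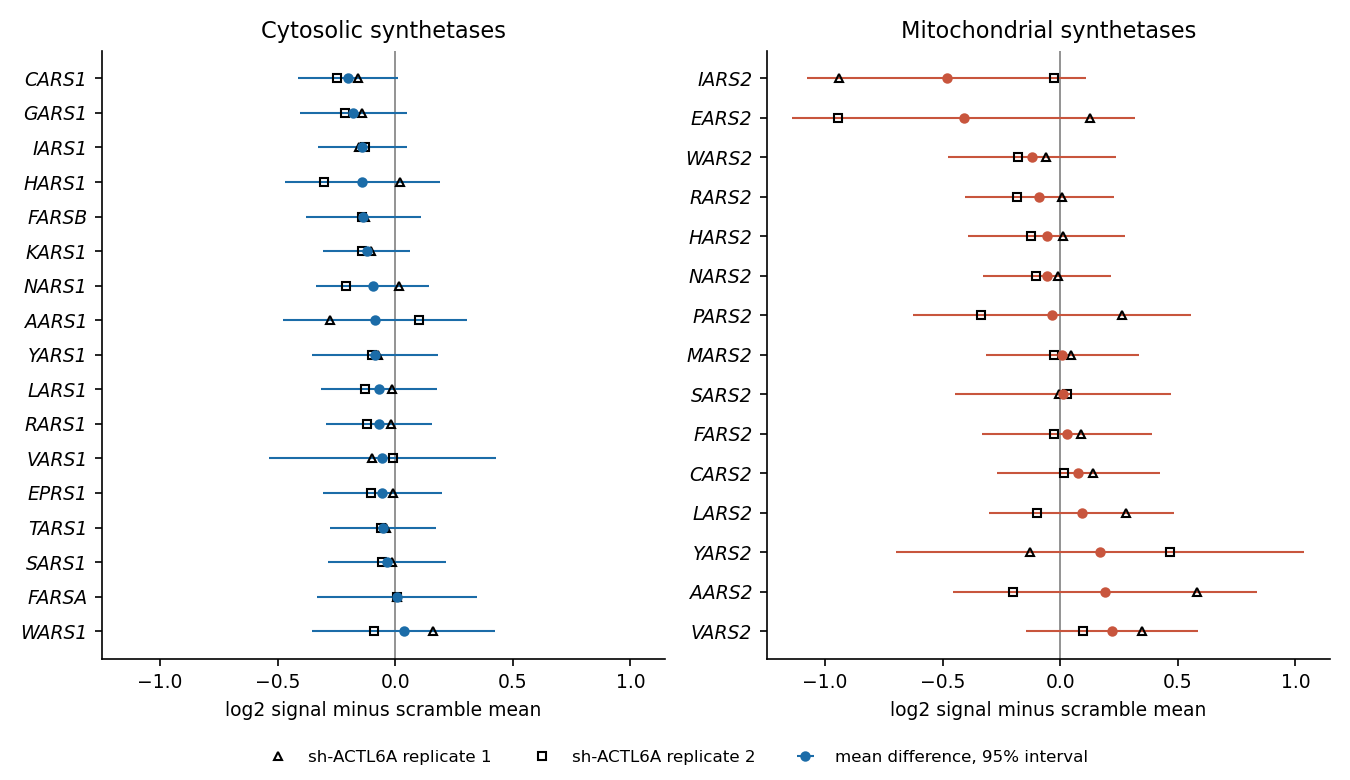
Difference in log2 signal from the scramble mean (x axis) for 17 cytosolic and 15 mitochondrial synthetases (rows, ordered by the mean difference). Filled points are the mean of both sh-ACTL6A arrays with the 95% interval from limma, open triangles and squares are the single sh-ACTL6A arrays, and the cytosolic means stay between -0.20 and 0.04 while IARS2 and EARS2 are drawn out by 1 array each.

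Among the cytosolic genes whose groups did not overlap, CARS1, which charges tRNA with cysteine, had log2 signals of 13.45 and 13.42 in scramble and 13.28 and 13.19 in sh-ACTL6A. Its difference of -0.20 ± 0.09 (SE, n = 2 arrays per group, limma adjusted p = 0.917) had the lowest p of the 32 synthetases. GARS1, the glycine enzyme of both compartments, measured 13.00 and 12.97 in scramble and 12.85 and 12.77 in sh-ACTL6A. The arrays of each group lay within 0.1 of each other for both genes, and the differences, -0.20 and -0.18, were larger than those gaps. Neither passed the limma test.

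IARS1, the isoleucine enzyme, gave 13.82 and 13.83 in scramble and 13.67 and 13.70 in sh-ACTL6A, a difference of -0.14 ± 0.08 (SE). KARS1, the lysine enzyme that also supplies mitochondria, gave 14.07 and 14.02 in scramble and 13.94 and 13.90 in sh-ACTL6A. FARSB, the beta subunit of the phenylalanine enzyme, gave 12.42 and 12.42 in scramble and 12.30 and 12.28 in sh-ACTL6A. On these 3 probe sets both sh-ACTL6A arrays were lower by nearly the same amount, and the mean differences were -0.14, -0.12 and -0.14. The other KARS1 probe set, also above the threshold, gave 12.68 and 12.90 in scramble and 12.57 and 12.84 in sh-ACTL6A. Its groups overlapped, with a difference of -0.09. The alpha subunit of the phenylalanine enzyme, FARSA, stood at 0.01.

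YARS1, the tyrosine enzyme, measured 11.91 and 11.97 in scramble and 11.87 and 11.84 in sh-ACTL6A, a difference of -0.09. Its other probe set, below the threshold, had both sh-ACTL6A arrays above both scramble arrays, with a difference of 0.95. LARS1, the leucine enzyme, measured 12.57 and 12.57 in scramble and 12.56 and 12.44 in sh-ACTL6A, a difference of -0.07. For LARS1 the separation rested on replicate 2, because replicate 1 lay only 0.01 under the scramble mean. NARS1, the asparagine enzyme, was given for its high signal and measured 13.76 and 13.67 in scramble and 13.73 and 13.51 in sh-ACTL6A, a difference of -0.10 with overlapping groups. The other 9 cytosolic genes were HARS1 at -0.14, AARS1 at -0.09, RARS1 at -0.07, VARS1 at -0.06, EPRS1 at -0.06, TARS1 at -0.05, SARS1 at -0.03, FARSA at 0.01 and WARS1 at 0.04. Among them AARS1 was lower on replicate 1 (-0.28) and higher on replicate 2 (0.10), and HARS1 and WARS1 were higher on replicate 1 and lower on replicate 2.

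Members of the multisynthetase complex lay on the same side of 0 as the other cytosolic enzymes. On the probe set used, the 5 measured members, EPRS1, IARS1, KARS1, LARS1 and RARS1, were all below 0 on both sh-ACTL6A arrays. Their median difference was -0.07. On replicate 1, however, EPRS1, LARS1 and RARS1 stood at -0.01, -0.01 and -0.02. All 5 had a mean log2 signal above 12, a range in which 66.1% of genes were below 0. Their probe sets of next highest signal did not all repeat this. On replicates 1 and 2 these gave -0.22 and 0.05 for KARS1, -0.27 and 0.06 for EPRS1, and 0.05 and 0.14 for LARS1. The 12 cytosolic synthetases outside the complex had a median of -0.09, with 10 below 0. Of the scaffold proteins of the complex AIMP1 was the one tested, at -0.14 ± 0.13 (SE). By the structure of the catalytic domain, class I enzymes had a median of -0.07 over 16 genes and class II enzymes of -0.06 over 15.

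The 11 measured synthetases on the list of known ATF4 targets had a median difference of -0.09, and 10 of them were below 0. In the whole cytosolic class the median was also -0.09, with 15 of 17 below 0. The median log2 signal of the 11 was 12.53, and 66.1% of all genes at 12 or more were below 0. The 6 cytosolic genes with the ATF4 element in the promoter window, GARS1, IARS1, CARS1, TARS1, AARS1 and NARS1, had a median of -0.12, and the groups did not overlap in 3 of them, all on the lower side. The 8 cytosolic genes with a window and no match had a median of -0.06, with 6 below 0 and a range from -0.14 to 0.04, and the groups did not overlap in 2, again on the lower side. That pattern held for 15.4% of all genes and for 21.4% of those with a mean log2 signal of 12 or more. The difference between genes with and without the element was not tested. YARS2, the mitochondrial gene with a match, stood at 0.17.

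The mitochondrial synthetases were spread on both sides of 0. Of 15 genes, 7 had a lower mean on the sh-ACTL6A arrays, near the 48.1% of all genes, and the median difference was 0.01. Replicate 1 gave a median of 0.04 and replicate 2 of -0.10, so the arrays put the class on opposite sides of the scramble mean. Differences ranged from -0.48 for IARS2 to 0.22 for VARS2. The groups did not overlap in 2 genes, WARS2 on the lower side and VARS2 on the higher. Each is 1 of 15, where the shares over all genes were 15.4% and 19.3%.

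WARS2, the mitochondrial tryptophan enzyme, gave 9.90 and 9.81 in scramble and 9.80 and 9.68 in sh-ACTL6A, a difference of -0.12 ± 0.15 (SE). VARS2, the mitochondrial valine enzyme, gave 10.04 and 10.05 in scramble and 10.39 and 10.14 in sh-ACTL6A, a difference of 0.22 ± 0.16 (SE, limma adjusted p = 0.932). Replicate 1 carried most of the VARS2 difference, at 0.35 against 0.09 on replicate 2. NARS2, for asparagine, measured 12.15 and 12.04 in scramble and 12.08 and 11.99 in sh-ACTL6A. RARS2, for arginine, measured 11.56 and 11.41 in scramble and 11.49 and 11.30 in sh-ACTL6A. Both overlapped between groups, with differences of -0.06 and -0.09.

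In 3 mitochondrial genes 1 or 2 arrays stood far from the others of their group. IARS2, the isoleucine enzyme, had log2 signals of 12.97 and 12.88 in scramble and 11.98 and 12.90 in sh-ACTL6A, so replicate 1 alone was lower by 0.94. EARS2, the glutamate enzyme, had 9.87 and 9.96 in scramble and 10.04 and 8.97 in sh-ACTL6A, so replicate 2 alone was low. YARS2, the tyrosine enzyme, had 11.60 and 10.36 in scramble and 10.86 and 11.45 in sh-ACTL6A, and its scramble arrays parted more than its groups did. The 3 differences with all arrays were -0.48 ± 0.26 (SE), -0.41 ± 0.31 and 0.17 ± 0.37, and none passed.

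A choice of array decided the call for IARS2 and EARS2. Without sh-ACTL6A replicate 2, IARS2 was at -0.94 with a limma adjusted p of 7.69e-05, and without replicate 1, EARS2 was at -0.95 with an adjusted p of 0.00891. In those fits the lone sh-ACTL6A array was assumed to vary like the scramble pair, and the number of genes called grew from 1 to 335 without replicate 2 and to 401 without replicate 1. A gap of at least 0.9 between the sh-ACTL6A arrays occurred in 2 of 32 synthetases and in 5.34% of all genes. The cut of 0.9 was not planned and lies just under the IARS2 gap. Between the scramble arrays such a gap occurred in 1 of 32 synthetases and in 3.01% of genes. IARS2 had no other probe set above the threshold, while the 3 other EARS2 probe sets gave -0.05, -0.04 and -0.03.

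The remaining mitochondrial genes were AARS2 at 0.19, LARS2 at 0.09, CARS2 at 0.08, FARS2 at 0.03, SARS2 at 0.01, MARS2 at 0.01, PARS2 at -0.04 and HARS2 at -0.06. AARS2, PARS2 and LARS2 were above the scramble mean on replicate 1, by 0.58, 0.26 and 0.28, and below it on replicate 2, by values of -0.20, -0.33 and -0.10. The other AARS2 probe set above the threshold was above the scramble mean on both, by 0.30 and 0.10. With IARS2, EARS2 and YARS2 left out, a choice made after their values were seen, the median of the other 12 mitochondrial genes was 0.01.

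The class medians differed by -0.10, cytosolic minus mitochondrial. The same quantity was -0.09 for sh-ACTL6A replicate 1 and -0.02 for replicate 2, each against the scramble mean. Between the scramble arrays themselves, replicate 1 minus replicate 2, it was -0.08. The difference between classes was therefore about as large as the one between the control arrays. It was -0.04 after quantile normalisation, which put the mitochondrial median at -0.04 with 10 of 15 genes below 0, and it was -0.02 without scramble replicate 2. The classes also differed in signal, with a median log2 signal of 12.43 for cytosolic and 10.48 for mitochondrial genes. A mean of 12 or more was reached by 11 cytosolic and 2 mitochondrial genes, all below 0. Under 12 the median differences were -0.07 and 0.01. The part of signal strength in the class difference was not tested.

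**Figure D2:**
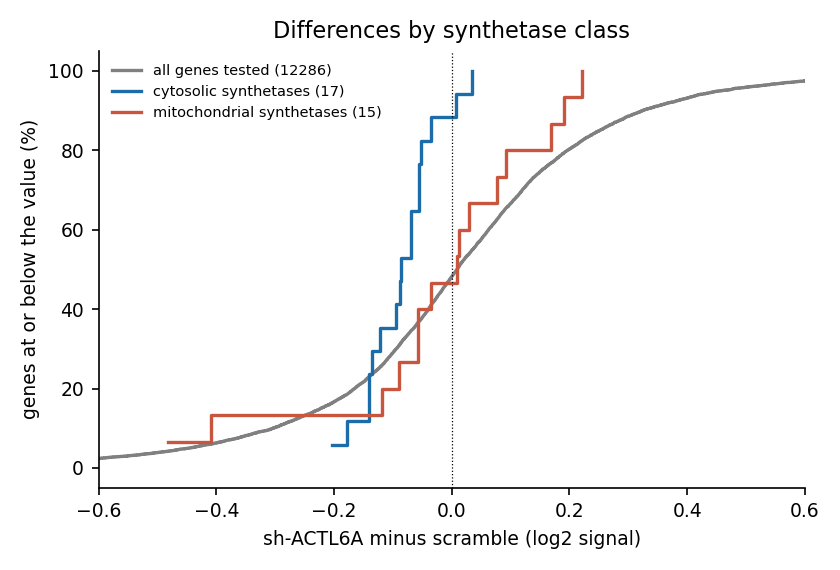
Share of genes (y axis, percent) with a difference at or below each value (x axis, sh-ACTL6A minus scramble, log2 signal, drawn from -0.6 to 0.6) for 17 cytosolic synthetases, 15 mitochondrial synthetases and all 12286 genes tested. The cytosolic line climbs to 15 of 17 genes before 0, while the mitochondrial line crosses 0 near the line of all genes.

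Partners for the same amino acid were set side by side in 15 pairs, with EPRS1, which charges both glutamate and proline, and FARS2 each entering 2 pairs. The cytosolic difference was the lower one in 11 pairs. It was lower on replicate 1 in 10 pairs, on replicate 2 in 9, and on both arrays in 5. The cysteine pair was among the 5, with the difference of CARS1 minus that of CARS2 at -0.30 on replicate 1 and -0.26 on replicate 2. The valine pair was too, at -0.45 and -0.10, and the tryptophan pair was the 1 pair with the cytosolic difference higher on both, at 0.22 and 0.09. The alanine pair turned round, with the difference of AARS1 minus that of AARS2 at -0.86 on replicate 1 and 0.30 on replicate 2. This used the brightest AARS2 probe set, and the other one above the threshold did not change side between the arrays. HARS1 and HARS2, which are transcribed in opposite directions from starts 85 bases apart, differed from scramble by -0.14 and -0.06.

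Probe sets for the same gene did not always take the same side. They are numbered here by falling mean signal within the gene. Of 15 synthetases with more than 1 probe set above the threshold, 5 had a probe set with the opposite sign. The CARS1 probe set used above was lower on both sh-ACTL6A arrays, whereas probe set 3 measured 9.07 and 10.10 in scramble and 9.42 and 9.88 in sh-ACTL6A, a difference of 0.07. Probe set 2 of CARS1 gave -0.04 and probe set 4 gave -0.62, the latter with 6.97 and 6.49 in scramble and 5.57 and 6.64 in sh-ACTL6A. Of these 4 values sh-ACTL6A replicate 1 was the lowest, and the scramble arrays also lay 0.48 apart.

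LARS1 had the clearest disagreement, since its 3 further probe sets gave 0.10, 0.06 and 0.14 against -0.07 for the one used. Probe set 2 of LARS1 measured 12.13 and 12.16 in scramble and 12.20 and 12.29 in sh-ACTL6A, with both sh-ACTL6A arrays the higher. EPRS1 measured 12.41 and 12.36 in scramble and 12.38 and 12.28 in sh-ACTL6A on its main probe set (-0.06), and its probe set 3 gave 9.44 and 10.19 in scramble and 9.56 and 10.11 in sh-ACTL6A (0.02). The groups overlapped on both. WARS1 measured 9.98 and 10.20 in scramble and 10.25 and 10.00 in sh-ACTL6A (0.04), and its probe set 2 gave -0.03. FARS2, the mitochondrial phenylalanine enzyme, measured 9.72 and 9.63 in scramble and 9.76 and 9.65 in sh-ACTL6A (0.03), and its probe set 2 gave -0.08. Over the 56 probe sets above the threshold, both sh-ACTL6A arrays lay below both scramble arrays in 9 and above in 4, against 15.1% and 18.3% of all 27307 probe sets above it.

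**Figure D3:**
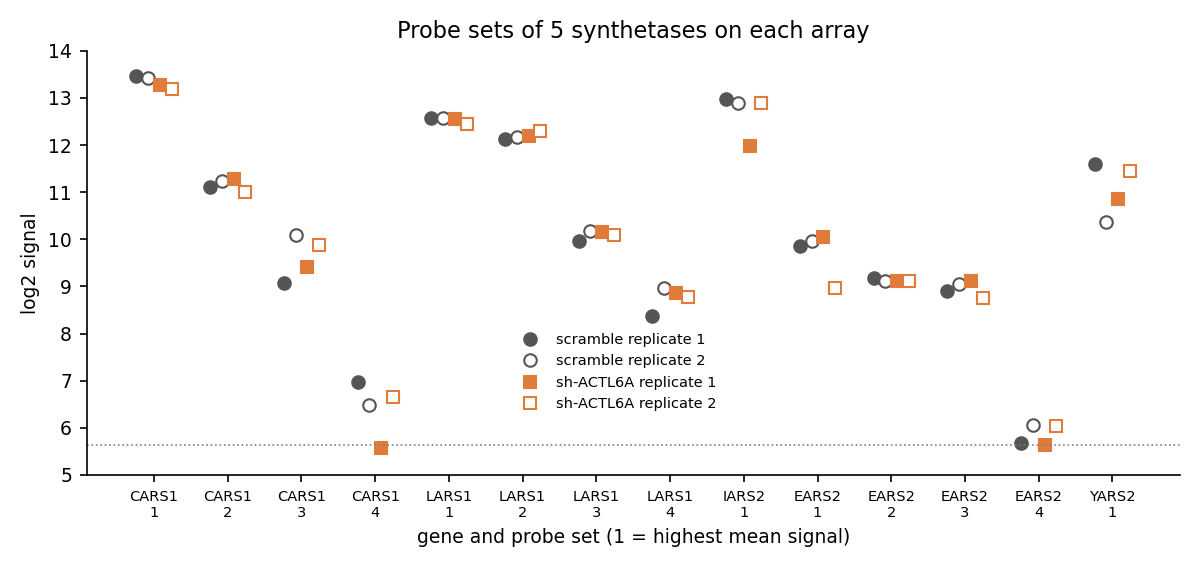
Log2 signal (y axis) on the 4 arrays for all 14 probe sets above the threshold of CARS1, LARS1, IARS2, EARS2 and YARS2, numbered within each gene from the highest mean signal. Circles are scramble and squares sh-ACTL6A, filled for replicate 1 and open for replicate 2, and the dotted line marks the threshold of 5.63. In IARS2 the filled square and in the first EARS2 probe set the open square stand about 0.9 below the other 3 arrays.

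Some synthetase probe sets followed the replicate number rather than the group, as did many other probe sets above the threshold. In 10 of 56 synthetase probe sets both arrays numbered 1 lay below both arrays numbered 2, against 20.7% of all probe sets above the threshold, and in 13 of 56 they lay above, against 16.9%. Probe set 2 of FARSA had the widest mean gap of the 10, at 8.71 and 9.63 in scramble and 9.01 and 9.76 in sh-ACTL6A. Probe sets 3 of CARS1 and EPRS1, given above, were also among the 10. Of the 13, probe set 2 of SARS1 had the widest mean gap, at 9.37 and 9.07 in scramble and 9.46 and 8.69 in sh-ACTL6A. ACTB 3′ minus 5′ control values, 1.63 and 0.78 in scramble and 1.21 and 0.78 in sh-ACTL6A, also parted by replicate number. Their part in the gaps of either direction was not tested.

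**Figure D4:**
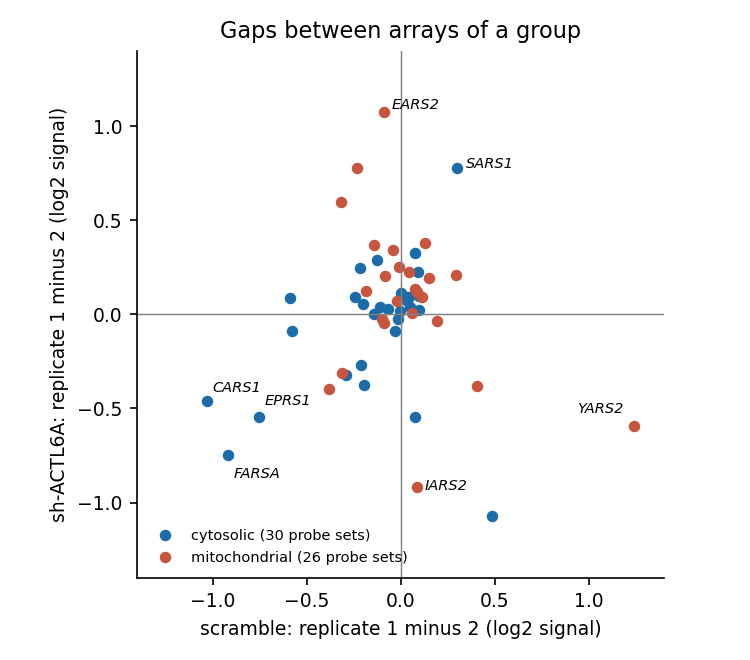
Replicate 1 minus replicate 2 in log2 signal for the scramble arrays (x axis) and the sh-ACTL6A arrays (y axis), for 30 cytosolic and 26 mitochondrial probe sets above the threshold. Most points lie near 0, FARSA, CARS1 and EPRS1 probe sets fall to the lower left with replicate 1 lower in both groups, and EARS2, IARS2 and YARS2 stand out along 1 axis each or both.

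None of the tested genes around the synthetases in translation passed. The 4 cytosolic elongation factors tested of 6 listed had a median difference of -0.01, and EEF1A1, which delivers charged tRNA to the ribosome, stood at -0.07. It was the 1 gene of the 4 whose groups did not overlap, with sh-ACTL6A lower. That held for 15.4% of all genes. The mean log2 signal of EEF1A1 was 15.12, and at 12 or more the share was 21.4%. Of 13 mitochondrial translation factors 12 were tested, 7 were below 0 and the median was -0.06. Their groups did not overlap in 4 on the lower side and 2 on the higher, where the shares over all genes were 15.4% and 19.3%. GATC, a subunit of the amidotransferase that completes mitochondrial glutaminyl-tRNA, was at 0.32 (limma unadjusted p = 0.0795), and the initiation factors MTIF2 and MTIF3 were at -0.21 and -0.23.

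Genes of tRNA maturation and export, 17 of 18 tested, had a median of -0.05 with 10 below 0. RPP25, a subunit of RNase P, measured 9.64 and 9.92 in scramble and 10.32 and 10.17 in sh-ACTL6A, a difference of 0.46 with an unadjusted p of 0.0247 and an adjusted p of 0.851 in limma. POP4, another RNase P subunit, was at -0.26 and TSEN54, of the tRNA splicing endonuclease, at -0.29. These 2 did not overlap between groups and did not pass. Over the 17 genes, groups did not overlap in 7 on the lower side and in 2, RPP25 among them, on the higher. The shares over all genes were 15.4% and 19.3%.

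The amino acid stress response, 11 of 12 genes tested, leaned to the same side as the cytosolic synthetases, with a median of -0.14. Of the 11 genes, 10 were below 0, against 48.1% of all genes. Both sh-ACTL6A arrays lay below both scramble arrays in 6, against 15.4%, and above them in 0, against 19.3%. CHAC1, which degrades glutathione, measured 8.29 and 8.60 in scramble and 8.14 and 7.51 in sh-ACTL6A, a difference of -0.62 ± 0.26 (SE, limma adjusted p = 0.906). ASNS, asparagine synthetase, was at -0.34 and TRIB3, a pseudokinase induced by ATF4, at -0.32. ATF4 measured 13.22 and 13.31 in scramble and 13.17 and 13.10 in sh-ACTL6A, a difference of -0.14 ± 0.09 (SE) with no overlap between groups. Such a separation on the lower side held for 21.4% of genes with a mean log2 signal of 12 or more. On the scramble arrays alone, replicate 1 was below replicate 2 in 9 of these 11 genes, with a median gap of -0.20.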

How the data were processed

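Total RNA from SNU638 cells was hybridised to 4 single-colour Affymetrix arrays, 2 scramble and 2 sh-ACTL6A, grouped by their labels. The authors deposited log2 signals, and the submitters' processing notes name MAS5. The sources used here give no version of it. MAS5 scales each array to a common level, and the linear mean after trimming 2% at each end was 500.0 on every array. Median log2 signal was 5.69 to 5.83. Values were used as deposited, and the number of arrays limits the precision. Gene names came from the platform's annotation, in which 41091 of 54613 probe sets other than controls had 1 symbol. Of 19775 genes, 12286 reached the 50th percentile of signal. Differences (sh-ACTL6A minus scramble) were fitted by lmFit and eBayes with an intensity trend (limma 3.58.1, R 4.3.3). P-values were 2-sided, and the Benjamini-Hochberg adjustment ran over all genes tested at a threshold of 0.05. Of the tests, only the limma fit was run on simulated data, in which both groups had a spread taken from the scramble arrays. The synthetases, the related lists and the tests were chosen with earlier results of these data known.

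Every synthetase is given with its difference. Values on each array are given where groups did not overlap, where the difference reached 0.3, for the 4 genes of each class with the highest signal, and where another probe set had the other sign. Of each related list, up to 3 genes with the smallest unadjusted p are named, and ATF4 was added after its values were seen. The methods' t-test, a fit over every probe set and a fit with a replicate block served as other tests. Other values came from quantile normalisation, median centring, averaging a gene's probe sets, an offset of 2.58 on the linear signal, leaving out each array, omitting the intensity trend, and filters at no signal or at the 75th percentile. Ranges of signal, the gap of 0.9 and the median without IARS2, EARS2 and YARS2 were added after the data were seen. Promoter windows came from RefSeq (GRCh38.p14), and protein sequences were not used here.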

Additional observations from a re-analysis of the deposited data

How the results depend on the processing

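With 2 arrays per group, differences inside the 95% interval of a gene could not be resolved, and signal over background limits dim probe sets most. Over the 32 synthetases and the alternatives that kept all arrays, 244 of 253 values kept their direction and their side of the threshold, 9 took the other direction and 0 passed. Under quantile normalisation FARSA was at -0.016, FARS2 at -0.0052, MARS2 at -0.012 and SARS2 at -0.036. With the mean of all probe sets LARS1 was at 0.056, VARS1 at 0.16, YARS1 at 0.43, FARS2 at -0.17 and WARS2 at 0.18, since dimmer probe sets then enter. Genes called lower were 0 under quantile normalisation, without the filter, without the intensity trend, by the methods' t-test and with every probe set tested. ACTL6A was at -1.64 under quantile normalisation and at -1.63 in the other alternatives with all arrays that ended its call. The cytosolic minus mitochondrial median was -0.043 under quantile normalisation. The cause of the other changes was not tested.

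The labels link same-numbered arrays by number only, and their deviations correlated at 0.0565 over 12286 genes. With a single gap per group, this value cannot show whether they shared a step of handling. With the replicate number as a block, 2 genes were called lower and 0 synthetases.

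Leaving out each array in turn, genes called lower ranged from 0 to 260 and higher from 0 to 141, synthetases called from 0 to 1 and ACTL6A from -1.71 to -1.55. Without scramble replicate 1 or 2 ACTL6A was at -1.58 or -1.68 and no longer passed. The mitochondrial median ranged from -0.098 to 0.044 and the cytosolic minus mitochondrial median from -0.096 to -0.016. Of 128 synthetase values, 26 took the other direction. In the cytosolic class the ranges were -0.065 to 0.080 for FARSA, -0.089 to 0.16 for WARS1, -0.28 to 0.10 for AARS1, -0.089 to 0.020 for SARS1, -0.35 to 0.23 for VARS1, -0.30 to 0.021 for HARS1 and -0.21 to 0.017 for NARS1. In the mitochondrial class they were -0.015 to 0.17 for CARS2, -0.026 to 0.044 for MARS2, -0.11 to 0.00038 for NARS2, -0.028 to 0.088 for FARS2, -0.33 to 0.26 for PARS2, -0.083 to 0.11 for SARS2, -0.45 to 0.79 for YARS2, -0.20 to 0.58 for AARS2, -0.098 to 0.28 for LARS2, -0.95 to 0.13 for EARS2, -0.13 to 0.0098 for HARS2 and -0.18 to 0.0066 for RARS2.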
